A study of Mus musculus with 13 samples.

Results

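The genes described here make, inactivate and sense histamine. They are Hdc, which encodes histidine decarboxylase, Hnmt, which encodes histamine N-methyltransferase, and the receptor genes Hrh1, Hrh2 and Hrh3. These are 5 of the 29700 nuclear genes counted in the mouse retina, and they were taken by name. The group was chosen by the measured CPM and fold changes of Hdc, which is among the largest decreases in both knockout groups. The Hdc values against wild type are therefore given as a description, without a test. All 5 genes passed the filter on low counts, as did 16782 genes in all.

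RNA from 1 retina per mouse was sequenced in 13 mice. The groups were 4 wild-type C57BL/6J mice aged 2 months on the base diet, 4 Rpe65-/- mice on the base diet (vehicle) and 5 Rpe65-/- mice given dietary TMB. TMB stands for tamsulosin, which blocks alpha-1 adrenergic receptors, metoprolol, which blocks beta-1 receptors, and bromocriptine, which activates D2 dopamine receptors. It was fed from postnatal day 22, and both knockout groups were collected at day 64. Rpe65 encodes the isomerase of the retinal pigment epithelium that regenerates the visual chromophore, and its loss in every cell models Leber congenital amaurosis. The sources do not give the wild-type mice as littermates of the knockout mice, and the study states that the background of the knockout line is not fully known, so genotype and genetic background cannot be told apart. The labels hold 4 wild-type libraries where the text on the design gives 3, and all 4 were used. The labels do not name a shared litter or batch, and each library is a separate mouse.

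Histamine is formed from histidine in a single step by histidine decarboxylase, an enzyme that needs pyridoxal phosphate. In brain tissue it is mainly inactivated by transfer of a methyl group by histamine N-methyltransferase. The H1 receptor couples to Gq/11 proteins and phospholipase C, the H2 receptor to Gs and cyclic AMP, and the H3 receptor to Gi/o. The H3 receptor is also known as a presynaptic autoreceptor that limits histamine release. In primates, axons from histamine neurons of the hypothalamus run to the retina, and the cell bodies of such neurons would not be in a retina sample. Mast cells and basophils are the best known sources of Hdc RNA outside the brain.

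Nuclear counts per library ranged from 13512155 to 16449989, and 3 counts in a library, the limit that a count of 0 allows, equal 0.182 to 0.222 CPM (the count divided by the nuclear total of the library, times 1000000). Rpe65 counts were 72 to 226 in wild-type libraries and 0 to 8 in knockout libraries. The wild-type library F4 stood apart from M1, M2 and F3. Its score on the first principal component, which held 38.8% of the variance, was -0.9, against -65.0 to -52.9 in the other wild-type libraries, -4.5 to 19.2 in TMB and 20.3 to 39.5 in vehicle libraries. Against its female label, vehicle F2 had 0.0659 CPM of Xist and 92.2 CPM of the Y-linked Eif2s3y. A deposited sample sheet gives vehicle F1 the genotype C57BL/6J within the Rpe65-/- vehicle group, against its label, and its Rpe65 count was 6. Member values in vehicle against wild type are also given with libraries left out, singly or as a range. Values of other single genes rest on all 13 libraries. The libraries also differed in how strongly the level of a transcript followed its GC content, the percentage of G and C bases. The 3343 transcripts richest in GC averaged 0.28 above their mean in wild type F4 on the log2 scale. This value was -0.49 to -0.33 in the other wild-type libraries, 0.12 to 0.33 in vehicle and -0.19 to 0.13 in TMB libraries. The trend thus differs in part with the group, and removing it can also remove a difference between groups. Where a value changes on its removal, trend and group difference cannot be told apart.

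Coordinates are those of build GRCm38. Hdc lies on the minus strand at chr2:126593667-126619299, Hnmt on the minus strand at chr2:24002910-24049394 and Hrh3 on the minus strand at chr2:180099465-180104488. Hrh1 lies on the plus strand at chr6:114397936-114483296 and Hrh2 on the plus strand at chr13:54192129-54236180. The identifiers in the annotation are ENSMUSG00000027360.5 (Hdc), ENSMUSG00000026986.14 (Hnmt), ENSMUSG00000053004.9 (Hrh1), ENSMUSG00000034987.4 (Hrh2) and ENSMUSG00000039059.11 (Hrh3). Exons of Hdc, Hnmt and Hrh1 overlap no other gene counted here. Hrh3 shares 349 of its 3146 exon bases with the antisense gene Gm17180 (0 to 3 counts) and Hrh2 shares 145 of 5935 with the antisense gene Gm16578 (0 to 5 counts). The sources used here do not state whether counting took strand into account.

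The members differ in base composition, which matters below because the libraries differ in it. The longest annotated transcript of each has a GC content of 37.62% (Hnmt), 48.25% (Hdc), 49.54% (Hrh2), 51.37% (Hrh1) and 62.16% (Hrh3). The first 48 coding bases of the GC-poorest member, of Hdc and of the GC-richest member show the range, with G and C in capitals.
Hnmt, chr2:24048777-24048824, minus strand: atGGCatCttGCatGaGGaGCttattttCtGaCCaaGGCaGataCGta
Hdc, chr2:126618522-126618569, minus strand: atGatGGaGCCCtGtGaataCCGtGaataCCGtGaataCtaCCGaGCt
Hrh3, chr2:180104104-180104151, minus strand: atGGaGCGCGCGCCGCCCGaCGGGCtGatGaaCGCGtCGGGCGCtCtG
In these stretches 21, 23 and 36 of the 48 bases are G or C. Over the whole coding sequence, the GC content is 40.56% in Hnmt, 54.43% in Hdc and 62.77% in Hrh3.

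The 250 bases before the RefSeq start of Hdc (chr2:126618679-126618928, minus strand, GRCm38) are shown because Hdc is the member that was furthest from wild type.
Hdc upstream: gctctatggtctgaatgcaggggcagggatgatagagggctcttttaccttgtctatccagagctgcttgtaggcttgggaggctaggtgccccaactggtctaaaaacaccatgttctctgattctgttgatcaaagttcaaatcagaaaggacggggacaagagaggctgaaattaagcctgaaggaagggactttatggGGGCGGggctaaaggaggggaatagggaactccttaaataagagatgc
Capitals mark a GC box (GGGCGG), the site known for the Sp1 family, whose first base is 48 bases before the start. The window was searched on both strands for this motif, for TAATCC, which the photoreceptor factors CRX and OTX2 bind, for the TATA box as TATAAA, for the core of the cAMP response element as TGACG and for the E-box as CACGTG. No searched motif overlaps another in this window, and the letters of the other motifs are not in it. Of 32851 windows of the same 250 bases before a RefSeq start, 32.7% hold the GC box, 6.25% the CRX and OTX2 motif, 12.4% the TATA box, 17.8% the cAMP response core and 6.02% the E-box. A match is no proof of a binding site. The window of Hdc has a GC content of 48.8%, higher than that of 36.6% of all windows, and the windows of Hnmt and Hrh3 have 38.8% and 80.8%. RefSeq gives 1 start for Hdc, which is also the first base of the coding transcript in GENCODE, and the window lies in an intron of a noncoding transcript that begins further upstream.

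Hdc RNA was readily counted in wild-type retinas and low in all knockout retinas. The counts were 374, 562, 457 and 550 in wild type M1, M2, F3 and F4. They were 9, 18, 27 and 12 in vehicle F1, F2, M4 and M5. In TMB F1, F3, F4, M5 and M6 they were 28, 15, 16, 21 and 21. Every knockout library lay above the limit of 3 counts and far below every wild-type library.

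The mean Hdc level was 32.1 ± 4.22 CPM in wild type (SD, n = 4), 1.11 ± 0.623 CPM in vehicle (n = 4) and 1.39 ± 0.405 CPM in TMB libraries (n = 5). Knockout retinas thus held 3.46% (vehicle) and 4.32% (TMB) of the wild-type mean. The fitted log2 fold change against wild type was -4.96 ± 0.28 (SE) in vehicle and -4.61 ± 0.25 in TMB libraries. Among 16782 genes ordered from the lowest log2 fold change, Hdc stood at place 9 in vehicle and at place 13 in TMB. These are the values by which the group was chosen. In whole retinas, fewer cells of a type and less RNA per cell cannot be told apart.

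**Figure D1:**
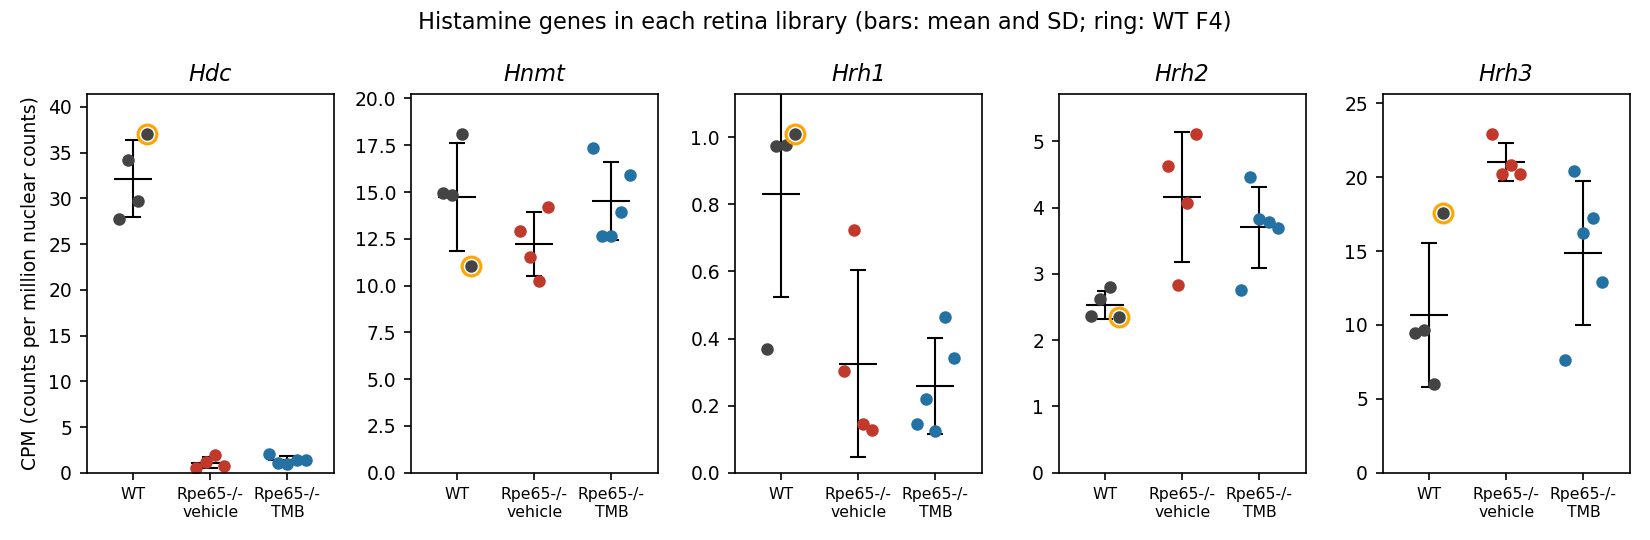
Level of each histamine gene (CPM, linear axis from 0) in each library of wild-type, Rpe65-/- vehicle and Rpe65-/- TMB retinas, with the group mean and SD as bars and wild type F4 ringed. Hdc fell from a wild-type range of 27.7 to 37.0 CPM to at most 2.03 CPM in the knockout libraries, while the ranges of Hnmt overlap in all groups.

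The Hdc difference was about as large without the libraries in doubt. Without vehicle F1 the log2 fold change was -4.72 in vehicle. Without wild type F4, the wild-type mean was 30.5 ± 3.31 CPM (n = 3), and the log2 fold change was -4.89 in vehicle and -4.54 in TMB libraries. Over all alternatives that changed 1 choice at a time or left out 1 library, it lay between -5.35 and -4.72 in vehicle and between -4.78 and -4.50 in TMB. The Hdc transcript has a middling GC content, and the GC trend of the libraries at that content was between -0.03 and 0.04 on the log2 scale. Libraries labelled male and female were both low, with 1.39 and 1.44 CPM in TMB M5 and M6 and 0.989 to 2.03 CPM in the TMB females.

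No difference of Hdc between TMB and vehicle passed the test. In TMB against vehicle the log2 fold change was 0.35 ± 0.31, with a 95% interval of -0.31 to 1.01 and an adjusted p of 0.511 in edgeR. The ranges overlapped, since only TMB F1, at 2.03 CPM, was above the highest vehicle library, M4 at 1.96 CPM. The interval leaves room for a change of up to 1.01 on the log2 scale, small beside the distance of either group to wild type.

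Hnmt, which encodes the methyltransferase, overlapped between all groups and passed the test in none of the comparisons. The counts were 202, 244, 278 and 164 in wild type M1, M2, F3 and F4. They were 212, 175, 141 and 225 in vehicle F1, F2, M4 and M5. In TMB F1, F3, F4, M5 and M6 they were 240, 173, 205, 210 and 233. The highest library was wild type F3, and wild type F4 lay below every TMB library, so that the wild-type range took in most of the others.

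The mean Hnmt level was 14.7 ± 2.89 CPM in wild type, 12.2 ± 1.71 CPM in vehicle and 14.5 ± 2.09 CPM in TMB libraries. The edgeR test gave no call for Hnmt (adjusted p = 0.0941, 0.7 and 0.347 for vehicle against wild type, TMB against wild type and TMB against vehicle). The log2 fold changes were -0.36 ± 0.16, -0.10 ± 0.15 and 0.26 ± 0.15, with 95% intervals of -0.70 to -0.01, -0.43 to 0.22 and -0.07 to 0.59. The vehicle value changed with the libraries used and when the GC trend was removed. Without wild type F4 it was -0.47 (adjusted p = 0.0108), and without the GC trend of the libraries it was 0.13 (adjusted p = 0.477).

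**Figure D2:**
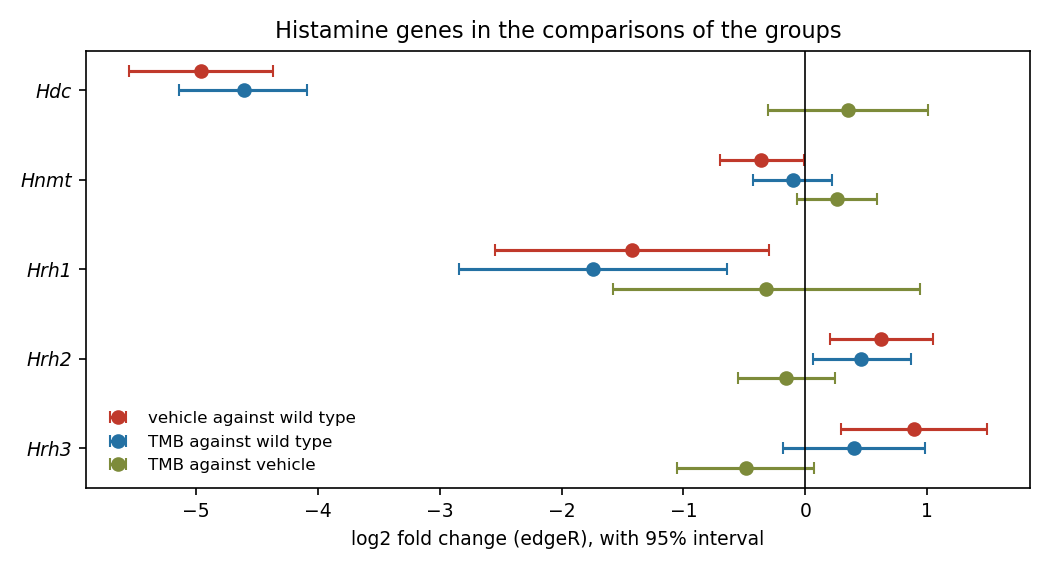
Log2 fold change of each histamine gene in the 3 comparisons (edgeR), with the 95% interval as bars and a line at 0. Hdc lies at -4.96 and -4.61 against wild type and at 0.35 between the knockout groups, and the intervals of TMB against vehicle include 0 for all 5 genes.

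Among the receptors, Hrh2 and Hrh3 were higher and Hrh1 lower in vehicle retinas than in wild type by the edgeR test. Hdc is left out of these counts, since its values chose the group. Of the 4 other members 3 were called in vehicle against wild type, where 33.9% of all tested genes were, with 2 higher and 1 lower beside 15.7% and 18.3% of all tested genes. In TMB against wild type 1 of the 4, Hrh1, was called, where 9.53% of all tested genes were, with 0 higher and 1 lower beside 4.51% and 5.02%. In TMB against vehicle edgeR called none of the 5 members and 0% of all genes. In that comparison 3064 genes had an unadjusted p under 0.05, DESeq2 called 60 genes and limma-trend called 0. With only the 2 groups compared edgeR called 2402 genes, and without wild type F4 it called 2741, but no tested member in either fit. The receptor calls rested on few libraries and settings, as given with each gene. Hrh1 is counted here although it passed the filter on low counts mainly through wild-type libraries.

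Hrh1, the Gq/11-coupled receptor, was the least abundant member. The counts were 5, 16, 15 and 15 in wild type M1, M2, F3 and F4. They were 5, 11, 2 and 2 in vehicle F1, F2, M4 and M5. In TMB F1, F3, F4, M5 and M6 they were 2, 3, 2, 7 and 5. In 5 of the 9 knockout libraries the count was at or under 3, and the wild-type library M1 lay within the knockout range, so the groups overlapped.

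The mean Hrh1 level was 0.832 ± 0.308 CPM in wild type, 0.325 ± 0.278 CPM in vehicle and 0.259 ± 0.143 CPM in TMB libraries. The log2 fold change was -1.42 ± 0.53 in vehicle (edgeR adjusted p = 0.0487) and -1.74 ± 0.52 in TMB (adjusted p = 0.0457). Both calls lie next to the threshold, and neither held without the filter on low counts (edgeR adjusted p = 0.0858 and 0.0673). Hrh1 passed that filter mainly through wild type M2, F3 and F4, in the group where it was highest. Its calls against wild type are therefore not independent of the filter. When each of the 13 libraries was left out in turn, the call held in 2 cases for vehicle and in 6 for TMB, with log2 fold changes from -2.16 to -1.15 and from -2.06 to -1.56. For vehicle it held without wild type M1 or the library labelled vehicle F2, and without vehicle F1 it was -1.38 (adjusted p = 0.109). For TMB it was lost without wild type M2, wild type F3, vehicle F1 or any of TMB F1, F3, F4 and M6 (adjusted p = 0.0623 to 0.114). The value against wild type was below 0 in every alternative that tested Hrh1. TMB against vehicle gave -0.32 ± 0.59 (adjusted p = 0.768), with a 95% interval of -1.58 to 0.94, and 0.42 without the library labelled vehicle F2.

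Hrh2, the Gs-coupled receptor, was higher in vehicle than in wild-type retinas. The counts were 32, 43, 43 and 35 in wild type M1, M2, F3 and F4. They were 76, 43, 56 and 81 in vehicle F1, F2, M4 and M5. In TMB F1, F3, F4, M5 and M6 they were 38, 61, 62, 57 and 54. In CPM every vehicle library was above every wild-type library, a pattern that 19.4% of all tested genes showed in either direction, and the library labelled vehicle F2 (2.83 CPM) was just above wild type F3 (2.80 CPM). All TMB libraries but F1 (2.75 CPM) were above the wild-type range.

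The mean Hrh2 level was 2.53 ± 0.213 CPM in wild type, 4.16 ± 0.982 CPM in vehicle and 3.7 ± 0.613 CPM in TMB libraries. The log2 fold change in vehicle was 0.62 ± 0.20 (95% interval 0.20 to 1.05, edgeR adjusted p = 0.0286). In TMB it was 0.46 ± 0.19 (0.06 to 0.87), which did not pass after adjustment (adjusted p = 0.14). TMB against vehicle gave -0.16 ± 0.18 (-0.55 to 0.24, adjusted p = 0.628). The vehicle call held with 9 of 13 libraries left out in turn and was lost without wild type M1, wild type M2, vehicle F1 or vehicle M5 (adjusted p = 0.0625 to 0.0925), and the value without vehicle F1 was 0.57 (adjusted p = 0.0763). Transcripts of this GC content hardly followed the base composition trend, and without that trend the vehicle value was 0.58 and still passed the test.

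Hrh3, the Gi/o-coupled receptor, was the most abundant receptor gene. The counts were 128, 159, 92 and 261 in wild type M1, M2, F3 and F4. They were 376, 307, 287 and 321 in vehicle F1, F2, M4 and M5. In TMB F1, F3, F4, M5 and M6 they were 105, 279, 262, 260 and 189. Vehicle libraries lay in a narrow band of 20.2 to 22.9 CPM above every wild-type library, where 19.4% of all tested genes did not overlap in either direction. TMB libraries reached from 7.60 to 20.4 CPM and overlapped both groups, and wild type F4 (17.6 CPM) was nearer to the vehicle libraries than to the other wild-type libraries (5.99 to 9.67 CPM).

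The mean Hrh3 level was 10.7 ± 4.89 CPM in wild type, 21.1 ± 1.27 CPM in vehicle and 14.9 ± 4.86 CPM in TMB libraries. The log2 fold change was 0.89 ± 0.28 in vehicle (edgeR adjusted p = 0.0271), 0.40 ± 0.27 in TMB (adjusted p = 0.37) and -0.49 ± 0.26 for TMB against vehicle (adjusted p = 0.306, 95% interval -1.05 to 0.07). Without wild type F4 the values against wild type were 1.24 in vehicle (adjusted p = 0.000333) and 0.75 in TMB (adjusted p = 0.0171). The vehicle call held with 8 of 13 libraries left out in turn and was lost without wild type M1, M2 or F3 or vehicle F1 or M5 (adjusted p = 0.0526 to 0.0862). Without vehicle F1, the library with the most Hrh3, it was 0.86 (adjusted p = 0.0654).

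The Hrh3 level moved with the GC trend of the libraries, which differs in part with the group. At the GC content of Hrh3, the trend of wild type M1, M2, F3 and F4 was -0.53, -0.47, -0.69 and 0.39 on the log2 scale. It was 0.47, 0.18, 0.32 and 0.45 in vehicle F1, F2, M4 and M5. In TMB F1, F3, F4, M5 and M6 it was -0.30, 0.19, 0.07, -0.01 and -0.08. Libraries with low values of the trend, wild type F3 and TMB F1 among them, were those with the least Hrh3 RNA in their groups. With the trend removed, the vehicle log2 fold change fell to 0.30 ± 0.16 and the call was lost (adjusted p = 0.196), also without wild type F4 (0.34, adjusted p = 0.159).

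Hnmt, at the other end of the base composition range, moved the opposite way. Over the 13 libraries, which share the same trend and groups, the log2 levels of Hnmt and Hrh3 had a Pearson correlation of -0.88, given as a description. That of Hdc and Hrh3 was -0.594 and that of Hdc and Hrh2 was -0.79. Among the genes whose levels were most like those of Hrh3, out of 15152 genes that averaged 1 CPM or more, were Endog, Ncdn, Grm2 and Plppr2 (Pearson r = 0.976 to 0.979), and their transcripts have a GC content of 56.9% to 64.3%. Grm2 encodes a metabotropic glutamate receptor.

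**Figure D3:**
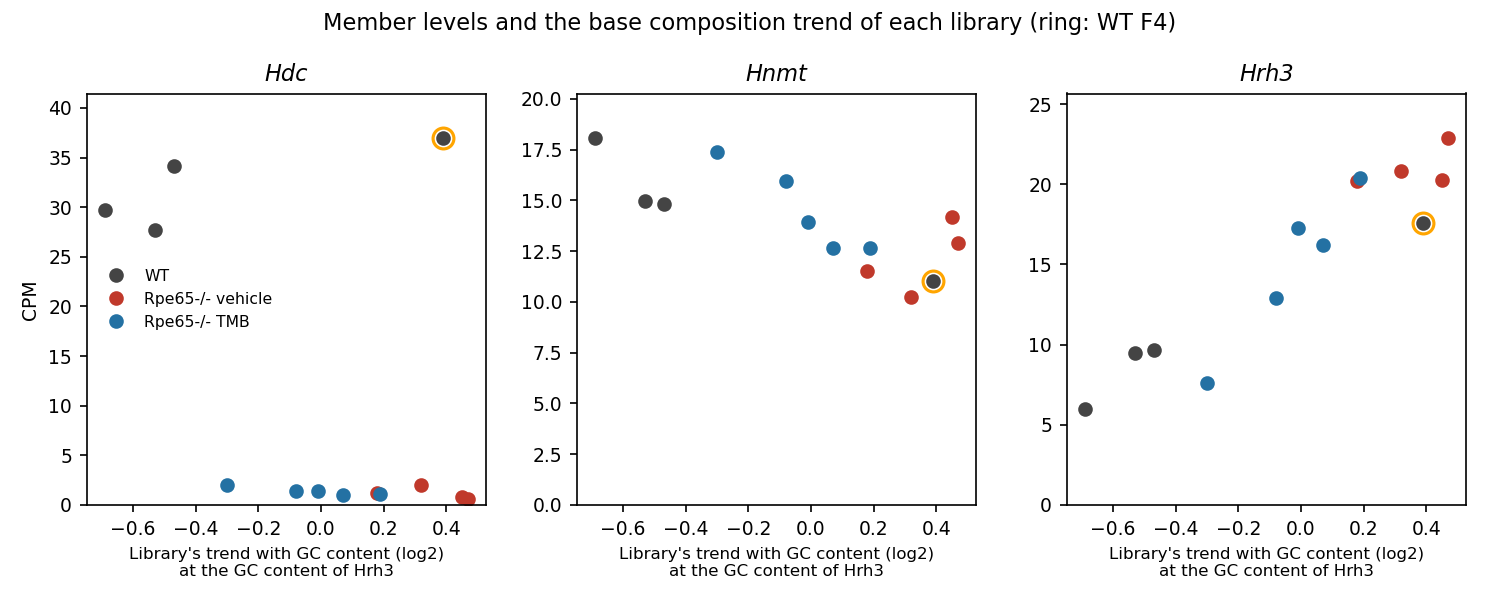
Level of Hdc, Hnmt and Hrh3 (CPM, vertical axes from 0) in each library against the trend of that library with GC content at the GC content of Hrh3 (log2), with wild type F4 ringed. Hrh3 is lowest in wild type F3 (trend -0.69) and highest in vehicle F1 (trend 0.47), and Hnmt is highest in wild type F3. Hdc is high in the wild-type libraries and low in the knockout libraries.

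The levels of the members relative to each other changed with the loss of Hdc. In CPM per kilobase of annotated exon, wild-type retinas held 8.33 ± 1.63 of Hnmt, 5.03 ± 0.661 of Hdc, 3.39 ± 1.56 of Hrh3, 0.427 ± 0.0359 of Hrh2 and 0.187 ± 0.0693 of Hrh1 (SD, n = 4). The ranges of Hdc and Hrh3 overlapped and those of the other neighbours in this order did not. In vehicle retinas the order was Hnmt (6.91 ± 0.969), Hrh3 (6.69 ± 0.405), Hrh2 (0.701 ± 0.165), Hdc (0.174 ± 0.0976) and Hrh1 (0.0731 ± 0.0625), where Hnmt and Hrh3 overlapped, as did Hdc and Hrh1. In TMB retinas it was Hnmt (8.20 ± 1.18), Hrh3 (4.73 ± 1.55), Hrh2 (0.624 ± 0.103), Hdc (0.217 ± 0.0633) and Hrh1 (0.0582 ± 0.0322), with no overlap between neighbours. The mean of Hdc thus went from between those of Hnmt and Hrh3 to below that of Hrh2.

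The place of Hdc in wild type depends on the length used. The annotated exons of Hdc sum to 6389 bases and its longest coding transcript has 2392 bases, while Hnmt has 1769 and 1656. Per kilobase of the longest coding transcript, a choice made after seeing the data, wild-type retinas held 13.4 ± 1.76 CPM of Hdc and 8.89 ± 1.74 CPM of Hnmt, and Hdc came first without overlap. In the knockout groups the mean of Hdc was below that of Hrh2 by both lengths, although per coding transcript their ranges overlapped (0.229 to 0.819 and 0.671 to 1.21 CPM per kilobase in vehicle).

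Of the genes that store, take up or oxidise amines, Slc18a2 fell with Hdc in vehicle retinas. It encodes the vesicular monoamine transporter VMAT2, which loads histamine and other amines into vesicles. Its level averaged 13.3 CPM in wild type (lowest library 8.28), 8.75 CPM in vehicle (7.92 to 9.68) and 10.6 CPM in TMB libraries (8.78 to 12.2), so the groups overlapped. The log2 fold change was -0.69 ± 0.18 in vehicle (edgeR adjusted p = 0.0122) and -0.41 ± 0.17 in TMB (adjusted p = 0.137). With the GC trend removed, Slc18a2 was at -0.60 ± 0.16 in vehicle and still called (adjusted p = 0.0127).

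Of this list, 7 of 12 genes were tested, and 1 rose and 3 fell in vehicle against wild type while 0 rose and 1 fell in TMB against wild type. With the GC trend removed 0 rose and 3 fell in vehicle, Slc18a2, Aldh3a2 and Slc29a4 (-0.47 ± 0.11), the last a plasma membrane monoamine transporter. The median log2 fold change was -0.24 and -0.27, beside 0.02 and -0.003 over all tested genes. Of all tested genes, 15.7% rose and 18.3% fell in vehicle, and 4.51% and 5.02% in TMB against wild type. With the GC trend removed, 19.4% of all tested genes were called in vehicle. Maoa, a monoamine oxidase that degrades serotonin and noradrenaline, was at -0.41 ± 0.11 in vehicle (adjusted p = 0.0133) but at -0.03 ± 0.11 with the GC trend removed. Maob, the oxidase that acts on methylhistamine, was at -0.41 ± 0.26 in vehicle (adjusted p = 0.226) and -0.25 ± 0.25 in TMB (adjusted p = 0.545). Aldh3a2, an aldehyde dehydrogenase, fell in vehicle (-0.24 ± 0.08, adjusted p = 0.0301) and in TMB (-0.27 ± 0.07, adjusted p = 0.0334), whereas Aldh2, the mitochondrial aldehyde dehydrogenase, rose in vehicle alone by the test (0.68 ± 0.22, adjusted p = 0.0291) and lost the call with the GC trend removed (adjusted p = 0.0643). Aoc1, the gene of diamine oxidase, was not analysed here.

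The counts of called genes for the supply of histidine changed when the GC trend was removed. Of 8 tested genes of histidine transport, charging and dipeptide metabolism, 2 rose and 0 fell in vehicle, and 0 changed in TMB against wild type. Of all tested genes 33.9% and 9.53% were called, so the list did not stand out by its count of calls. Its risers were Carns1, which makes carnosine from histidine (1.04 ± 0.30, adjusted p = 0.0187), and the dipeptidase gene Cndp2 (0.31 ± 0.11, adjusted p = 0.0436). The direction turned when the GC trend was removed, and 0 rose and 3 fell in vehicle. These were the histidine transporters Slc38a3 (-0.33 ± 0.08), Slc15a4 (-0.36 ± 0.09) and Slc7a5 (-0.23 ± 0.08), which were at -0.03 ± 0.13, -0.04 ± 0.13 and 0.15 ± 0.12 with the trend kept. Without wild type F4, 4 rose and 0 fell in vehicle, where 55.6% of all tested genes were called. Of the pyridoxal phosphate enzymes, the kinase gene Pdxk (0.38 ± 0.10, adjusted p = 0.0116) and the phosphatase gene Pdxp (0.96 ± 0.26, adjusted p = 0.0134) rose in vehicle. With the GC trend removed, Pdxp kept its call at 0.36 ± 0.12 (adjusted p = 0.0475), while Pdxk (adjusted p = 0.368), Carns1 (adjusted p = 0.155) and Cndp2 (adjusted p = 0.668) lost theirs.

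Few of the other enzymes that make amine transmitters or polyamines passed the test. Of 7 tested genes, 0 rose and 1 fell in vehicle, where 33.9% of all tested genes were called. In TMB against wild type 0 of the 7 changed, beside 9.53% of all tested genes. The gene called was Gad2, which makes GABA (-0.47 ± 0.15, adjusted p = 0.0277), and it lost the call with the GC trend removed (adjusted p = 0.162), where Odc1, the enzyme of polyamine synthesis, was called instead (-0.36 ± 0.09, adjusted p = 0.0067). Ddc, which encodes the related aromatic amino acid decarboxylase, was at 0.07 ± 0.35 in vehicle and -0.24 ± 0.34 in TMB. Th, the enzyme of dopamine amacrine cells, was at -0.01 ± 0.24 and -0.09 ± 0.23.

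Among 15 tested genes through which the receptors signal, 3 rose and 5 fell in vehicle, and 0 rose and 2 fell in TMB against wild type. Of all tested genes 33.9% and 9.53% were called, or 19.4% and 15.8% with the GC trend removed. With that trend removed 0 of the 15 rose and 3 fell in either group, which were Kcnj3, Gnai1 and the Go alpha subunit gene Gnao1 (-0.54 ± 0.11 in vehicle). Without wild type F4, 4 rose and 6 fell in vehicle and 3 rose and 7 fell in TMB, beside 55.6% and 38% of all tested genes called. Kcnj3, a potassium channel subunit opened by Gi/o-coupled receptors, fell in both groups. The lowest and highest libraries had 16.0 and 31.3 CPM in wild type, 13.8 and 15.4 in vehicle, and 14.2 and 17.7 in TMB, with log2 fold changes of -0.85 ± 0.16 (adjusted p = 0.00256) and -0.70 ± 0.15 (adjusted p = 0.00855). Vehicle libraries lay below the wild-type range, and TMB libraries overlapped it. Vehicle and wild type did not overlap in 19.4% of all tested genes, in either direction.

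Gnai1, an inhibitory G protein alpha subunit, fell in vehicle (-0.59 ± 0.11, adjusted p = 0.00287) and in TMB (-0.37 ± 0.11, adjusted p = 0.0401). With the GC trend removed, both kept their calls, with Kcnj3 at -0.58 ± 0.11 in vehicle and -0.59 ± 0.10 in TMB and Gnai1 at -0.28 ± 0.07 and -0.25 ± 0.06. Gnai2 (0.53 ± 0.11), Gna11 (0.41 ± 0.12) and Prkaca (0.41 ± 0.12) rose and Plcb1 (-0.52 ± 0.14), Plcb4 (-0.34 ± 0.12) and Prkca (-0.32 ± 0.09) fell in vehicle by the test. These G protein, kinase and phospholipase genes lost their calls with the GC trend removed, with adjusted p from 0.0557 for Plcb1 to 0.87 for Gna11. No gene of these lists was called in TMB against vehicle with all 13 libraries.

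Of 15 listed mast cell and basophil markers 4 were counted and the others were not analysed here. Cpa3 and Cma1, which encode mast cell proteases, had 0 to 2 counts in any library and were not tested. The 2 tested genes, Kit and Gata2, did not pass against wild type (edgeR adjusted p = 0.377 and 0.642 in vehicle, 0.735 and 0.481 in TMB). Kit, which is not confined to mast cells, was at 7.56, 9.26 and 8.57 CPM on average in wild type, vehicle and TMB libraries, and Gata2 at 1.39, 1.17 and 0.969 CPM. The summed level of the 4 genes lay between 6.81 and 9.96 CPM in wild type, 8.96 and 12.3 in vehicle, and 7.82 and 11.4 in TMB, and most of it was Kit.

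Markers of several retinal cell types also differed between knockout and wild-type retinas. Of all tested genes, 15.7% rose and 18.3% fell in vehicle, and 4.51% rose and 5.02% fell in TMB against wild type. The counts of the cell type lists are given with all 13 libraries and with the GC trend kept. Of 15 cone photoreceptor genes, 13 fell and 1 rose in both vehicle and TMB retinas against wild type, with a median log2 fold change of -1.91 and -1.85. Their summed level was 2010 to 2090 CPM in wild type, while it was 831 to 1000 CPM in vehicle and 801 to 994 CPM in TMB libraries. Of 12 rod genes 5 fell and 1 rose in vehicle. Of 8 ganglion cell genes 4 fell in each group, and their sum lay between 984 and 1010 CPM in wild type, 698 and 967 in vehicle, and 785 and 869 in TMB.

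Genes of glia and of the pigment epithelium were among those that rose in vehicle. In vehicle 33.9% of all tested genes were called, and in TMB against wild type 9.53% were. A count near these shares is no result about a cell type. Of 8 Mueller glia genes 4 rose and of 9 microglia genes 5 rose in vehicle, and 0 of either passed in TMB against wild type. Of 8 tested pigment epithelium genes, 5 rose and 1 (Rpe65) fell in vehicle, and their sum lay between 77.5 and 134 CPM in wild type, 134 and 509 in vehicle, and 157 and 194 in TMB. Of 9 amacrine genes 2 rose and 1 fell, of 10 bipolar genes 3 rose and 1 fell, of 5 horizontal cell genes 1 rose and 2 fell, and of 8 vessel genes 2 rose and 1 fell in vehicle. Of 3 tested erythrocyte genes 0 passed in vehicle and 2, the globin genes Hba-a1 (-1.49 ± 0.36) and Hbb-bs (-1.09 ± 0.26), fell in TMB against wild type. The summed level of that list lay between 8.72 and 19.1 CPM in wild type, 6.96 and 13.8 in vehicle, and 3.87 and 8.27 in TMB. Every nuclear gene counted here had counts in at least 1 library, so absence from the retina could not be seen for a listed gene. The part of these cell types in the values of the histamine genes was not tested.

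The genes around Hdc did not fall as it did. Of 28 tested genes that start within 1 Mb of it, 3 rose and 6 fell in vehicle (32.1%, beside 33.9% of all tested genes), and 1 rose and 0 fell in TMB against wild type (3.57%, beside 9.53%). Their log2 fold changes lay between -0.77 and 1.04 in vehicle and between -0.41 and 1.39 in TMB, far from the Hdc values. The nearest tested genes, Gm27003 and Gabpb1 (a subunit of a transcription factor), start 56.6 and 57.0 kb from Hdc. Gabpb1 was at -0.42 ± 0.09 in vehicle (adjusted p = 0.00563) and -0.22 ± 0.09 in TMB (adjusted p = 0.13).

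Cops2 (-0.77 ± 0.18), Sppl2a (-0.48 ± 0.14), Trpm7 (-0.47 ± 0.13), Eid1 (-0.47 ± 0.13) and Usp8 (-0.26 ± 0.09) also fell in vehicle, and Kcnip3 (0.44 ± 0.14), Fahd2a (0.30 ± 0.10) and Tmem127 (0.19 ± 0.07) rose. Once the GC trend was removed, Cops2, Eid1 and Gabpb1 kept their calls in vehicle (adjusted p = 0.0255, 0.0238 and 0.0132). Prom2 was the neighbour called in TMB (1.39 ± 0.41, adjusted p = 0.042), at 0.301 CPM in wild type and 0.849 CPM in TMB on average. Around the other members 22.2% to 38.9% of tested neighbours were called in vehicle against wild type. The log2 fold changes of these neighbours lay between -1.19 and 4.61 in vehicle and between -1.22 and 5.09 in TMB. The highest values are from a gene near Hnmt that averaged 0.130 CPM in wild type. Hnmt and Hrh3 lie on the same chromosome as Hdc, 103 Mb before and 53.5 Mb after it in the order of coordinates, so no members are neighbours.

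**Figure D4:**
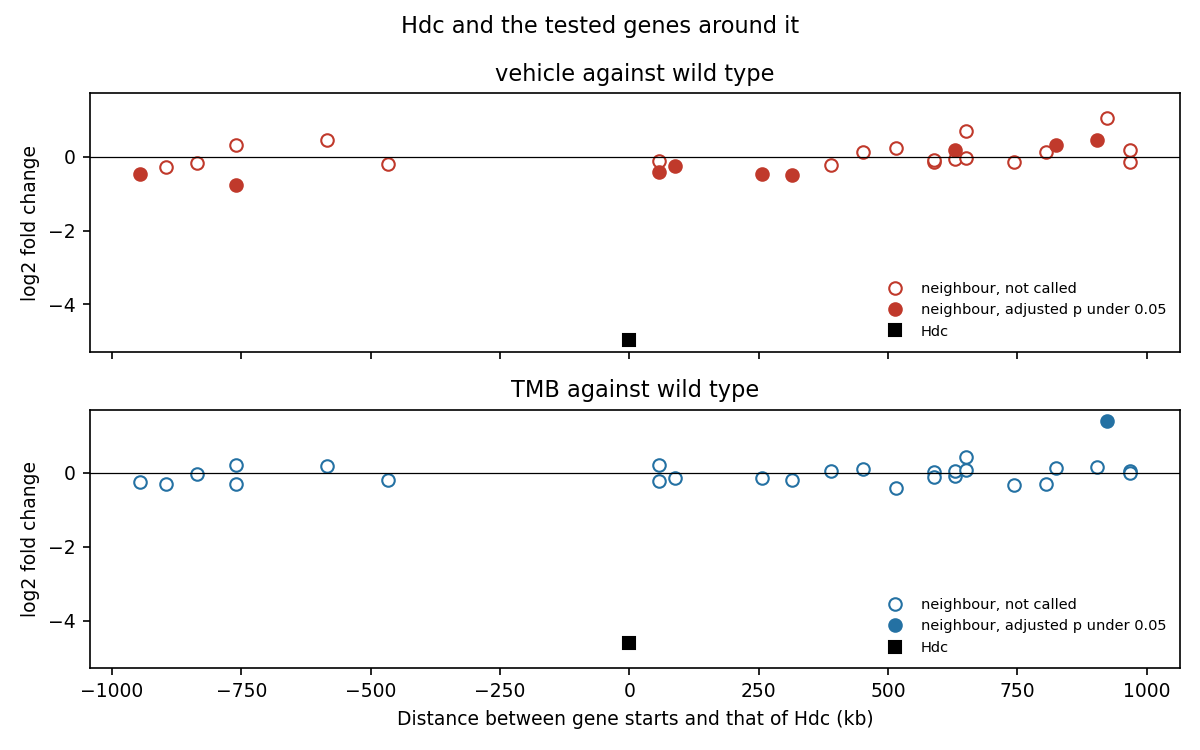
Log2 fold change of Hdc (square) and of the 28 tested genes within 1 Mb (circles, filled where the adjusted p was under 0.05) against the distance between gene starts in kb, for vehicle and TMB against wild type. Hdc lies at -4.96 and -4.61, while its neighbours lie between -0.77 and 1.39.

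The genes whose levels over the 13 libraries were most like those of Hdc were Zfp236, Grk1, Ext1, Spc25 and Rgs9bp, with Pearson correlations of log2 CPM of 0.969 to 0.979. These points share the split between wild type and knockout, so the measure mainly ranks genes that were low in both knockout groups. Grk1 encodes rhodopsin kinase and Rgs9bp the anchor of a photoreceptor G protein regulator. They fell far less than Hdc, with 2700, 1910 and 1980 CPM of Grk1 in wild type, vehicle and TMB libraries on average. Spc25, a kinetochore gene on the same chromosome, came nearest in size, with 149, 17.7 and 20.6 CPM and log2 fold changes of -3.16 and -2.93. Ext1, an enzyme of heparan sulphate synthesis, was at 71.3, 37.0 and 36.5 CPM.

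For Hrh2 the genes most like it were Stum, Cdk5rap1, Pced1a, Spag8 and Lsmem2 (r = 0.875 to 0.906), all of them higher in both knockout groups than in wild type on average. For Hrh1 they were Herc2, Trim21, Prmt5, Glg1 and Hivep2 (r = 0.879 to 0.896), with log2 fold changes in vehicle between -0.56 and -0.10, smaller than that of Hrh1.

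**Figure D5:**
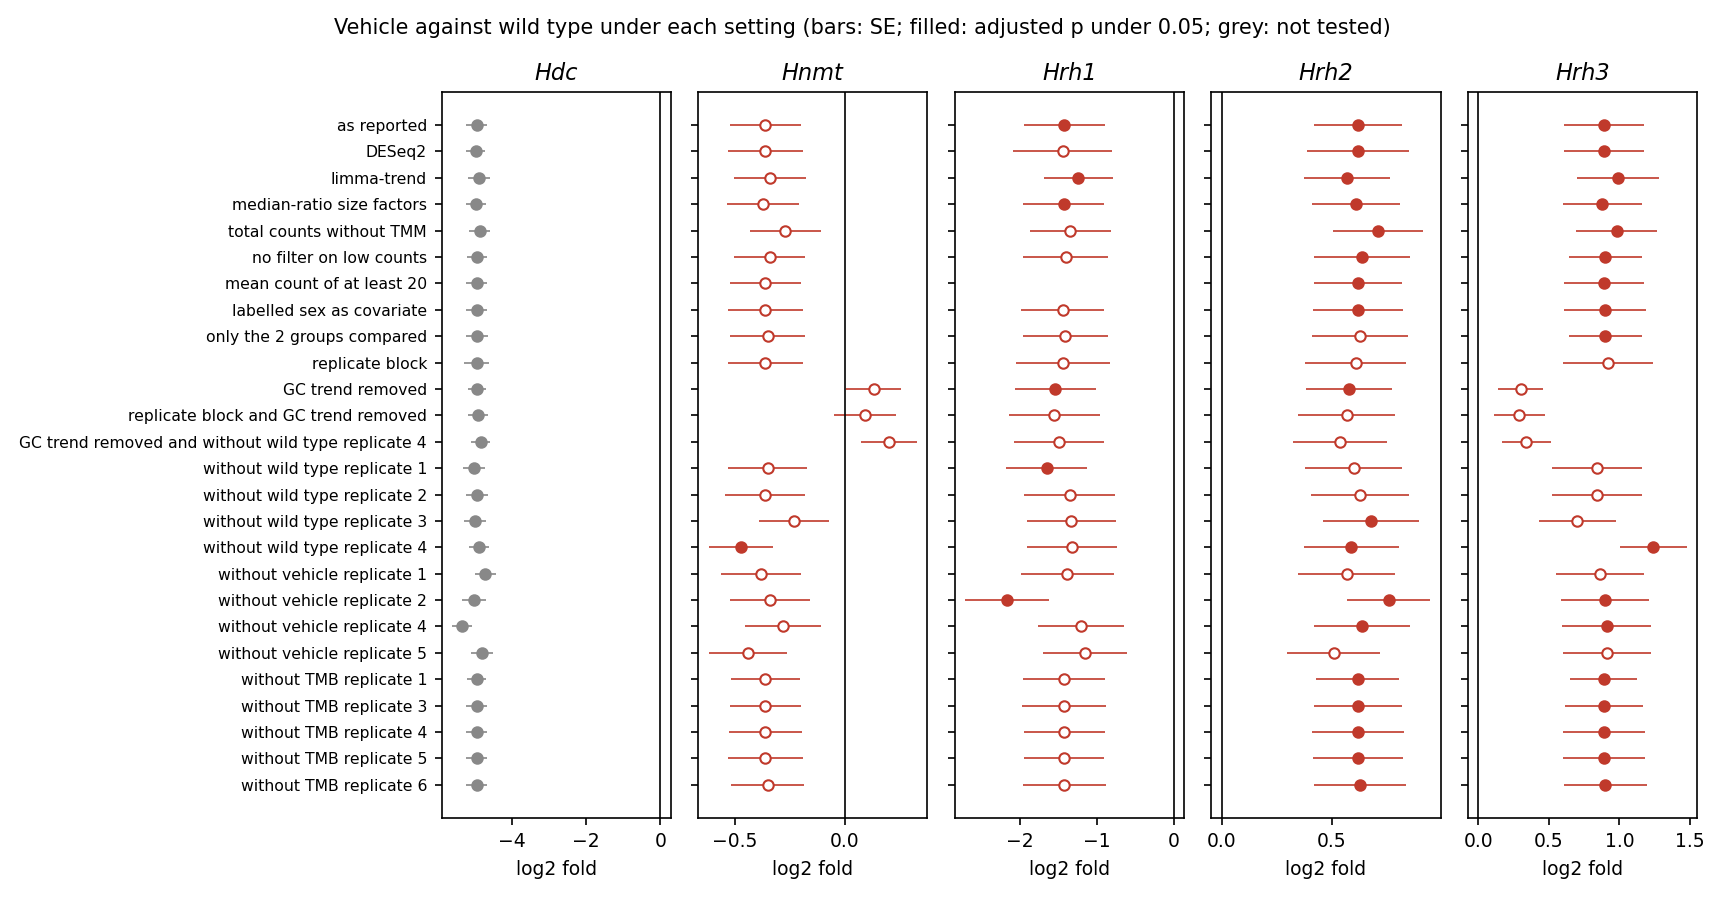
Log2 fold change of each histamine gene in vehicle against wild type under every setting (rows), with the SE as bars, filled points where the adjusted p was under 0.05 and grey points for Hdc, which was not tested. Hdc stays between -5.35 and -4.72, Hnmt moves from -0.36 to 0.13 and Hrh3 from 0.89 to 0.30 when the GC trend is removed.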

How the data were processed

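Libraries of 1 retina per mouse were grouped by the deposited labels. Per the labels and methods, the authors trimmed reads with Trimmomatic, aligned them with STAR to GRCm38, counted them with HTSeq and deposited raw read counts per gene. The deposited fold changes and p-values of the authors' DESeq2 fits were not used. For 97.2% of genes the coordinates match GENCODE M21. Groups were compared with edgeR 4.0.16 (quasi-likelihood F test, TMM, filterByExpr) in R 4.3.3, in 1 fit of all 13 libraries without covariates. The Benjamini-Hochberg adjustment ran over 16782 genes, and an adjusted p under 0.05 was called. CPM were computed on total nuclear counts. An SE is the log2 fold change over the square root of F. Other tools tried were limma-trend (limma 3.58.1, with a prior count of 2) and DESeq2 1.42.0, and other settings were size factors, other filters, covariates, a replicate block, a cubic GC trend of each library removed as an offset, and each library left out. Fits were tested on simulated data. Upstream sequences are from RefSeq (GRCm38.p6), where all 5 symbols matched. The members and all lists were chosen with earlier results of these data known. Named were the members, genes of the pathway lists that passed the test or had the smallest p-values, Slc18a2, Aoc1, Maoa and Maob, the 5 genes most like a called member, and called genes within 1 Mb of Hdc. A gene that this rule names is not reported here. Floors and intervals of counts cover counting error only.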

Additional observations from a re-analysis of the deposited data

Results flagged for a closer look

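Among the 15 combinations of a member and a group, 1 library lay far from the others of its group. Hrh1 was at 0.37 CPM (5 counts) in wild type M1 and at 0.973 to 1.01 CPM in the other wild-type libraries, a gap that took up 0.943 of the range of the group, more than the critical value of Dixon's test for 4 libraries. Chance takes about 1 of 20 groups past this critical value. Without wild type M1, Hrh1 stood at a log2 fold change of -1.65 in vehicle and -1.98 in TMB against wild type.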

How the results depend on the processing

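Hdc against wild type moved by less than 1 SD of the knockout group under all 12 settings and all 13 omissions of a library, and Hdc in TMB against vehicle stayed outside the call (0.11 to 0.74). The count of genes called in vehicle against wild type was 2861 with only the 2 groups compared, 2224 with a replicate block, 3260 with the GC trend removed and 2320 with both, and 2849 to 9508 with a library left out (9508 without wild type F4). In TMB against wild type it was 1053, 567 and 2654, then 3330 with the GC trend and wild type F4 removed (chosen after seeing the data), and 896 to 6490 with a library left out (6490 without wild type F4). In TMB against vehicle it was 60 in DESeq2, 2 without a filter, 2402 with only the 2 groups compared, 2 with the GC trend removed, 4 with the replicate block too, 368 with the GC trend and wild type F4 removed, and 0 to 2741 with a library left out (2741 without wild type F4).

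Hnmt changed sign with the GC trend removed, with that and the replicate block, and with that and wild type F4 left out, to 0.13, 0.09 and 0.20 in vehicle against wild type and to -0.08, -0.14 and -0.08 in TMB against vehicle. In TMB against wild type it went to 0.05 with the GC trend removed, 0.12 with wild type F4 left out too and 0.02 without wild type F3. With a library left out Hnmt was at -0.47 to -0.23, 0.18 to 0.34 and -0.22 to 0.02. Hrh1 lost its vehicle call in DESeq2 (-1.44), with total counts (-1.34), without a filter (-1.40), with labelled sex (-1.44), with only the 2 groups (-1.41), with the replicate block (-1.44), with block and GC trend (-1.55) and with GC trend and wild type F4 removed (-1.49). It lost its TMB call in limma-trend (-1.36), without a filter (-1.74), with labelled sex (-1.74), with the replicate block (-1.68) and with block and GC trend (-1.74). It was not tested at a mean count of at least 20, DESeq2 gave it no adjusted p in TMB against wild type, it was not tested in the TMB comparisons with only the 2 groups, and with a library left out its ranges were -2.16 to -1.15, -2.06 to -1.56 and -0.64 to 0.42 (0.42 in TMB against vehicle, without vehicle F2).

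Hrh2 lost its vehicle call with only the 2 groups (0.63), with the replicate block (0.61), with block and GC trend (0.57) and with GC trend and wild type F4 removed (0.54), and ranged from 0.51 to 0.76 with a library left out. Hrh3 lost its vehicle call with the replicate block (0.92), the GC trend removed (0.30), both (0.29) and the GC trend and wild type F4 removed (0.34). With a library left out its range was 0.70 to 1.24 (vehicle) and 0.20 to 0.75 (TMB) against wild type. The cause of these changes was not tested. Whether the numbers in the library names pair the samples was not settled. Of 9 same-numbered pairs 3 correlated above 0.1 (range -0.171 to 0.252), and 4 of 12 libraries correlated best with their own number. These correlations cannot exclude a shared litter or batch, since the libraries also differ in their base composition trend. Counts of 2 to 16 limit what can be said of Hrh1.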
